A study of Homo sapiens with 4 samples.

Results

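Exons of 10 well-known circular RNAs, made from HIPK3, ZNF609, CDYL, FBXW7, CAMSAP1, MAN1A2, ASXL1, SMARCA5, ZKSCAN1 and RHOBTB3, were examined for regions bound by Argonaute in HEK293 cells. A region was taken as a member where it overlapped, by at least 1 nt and on the same strand, the hg19 interval between the back-splice sites of a circle. The rule itself uses positions and no score, and the circles were chosen with earlier results of these data known. Of the 211947 regions in the deposited list, 30 lay in the 10 intervals, and each interval held at least 1 region.

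HEK293 is a human embryonic kidney cell line. Argonaute was mapped by PAR-CLIP, in which a photoreactive uridine analogue is built into RNA, bound protein is crosslinked to it by long-wave ultraviolet light, and the RNA that comes down with the protein is sequenced. The series held 3 AGO1 libraries, precipitated through a FLAG tag after 16 h with 200 µM 4-thiouridine, and 1 AGO2 library, precipitated with an AGO2 antibody after 16 h with 100 µM. All were crosslinked at 365 nm. The AGO1 cells carried a stably expressed tagged protein besides their own Argonautes, whereas the AGO2 library's labels name no tag and the series' design text names one. No untreated or mock precipitation was analysed here. The deposited list pools libraries and gives 1 score per region, so values have no replicates, AGO1 and AGO2 cannot be set apart, and no test was made between conditions. The score is a whole number from 1 to 1000 whose unit is not stated, and the read depth is unknown.

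A circular RNA forms when the spliceosome joins the 3′ end of an exon back to the 5′ end of the same or an earlier exon, which leaves a closed RNA without cap or poly(A) tail. Such RNAs are stable and mostly cytoplasmic, and one of them, the CDR1 antisense circle, is known as a dense platform for miR-7 loaded on Argonaute. The exons of the circles described here are also part of the linear mRNA of their host gene. A region inside a circle interval can come from either form, and the files cannot tell these apart.

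All 10 symbols were found as protein-coding genes in RefSeq (assembly GRCh38.p14). Of them, 9 had an entry in its promoter table, and all 9 lay there on the chromosome and strand given for the circle. An annotation of hg19 was not used here, so the label of the intervals as exons was not checked base by base. The edges of an interval are exon edges by the definition of a back-splice, and an interval with several exons holds the introns between them as well. Intervals ran from 465 nt (SMARCA5) to 18465 nt (MAN1A2).

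The 30 regions were unevenly spread. HIPK3 held 7 and ZKSCAN1 6, together 43.3% of the regions. RHOBTB3 held 4, ZNF609 and CDYL 3 each, MAN1A2 and ASXL1 2 each, and FBXW7, CAMSAP1 and SMARCA5 1 each. Thus 5 circles with 3 or more regions held 23 of them and the other 5 circles held 7. The order by summed score began in another way: HIPK3 had 58 of the total of 163 (35.6%), RHOBTB3 25 (15.3%) and ZKSCAN1 21 (12.9%), while the other 7 circles lay between 4 and 10.

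**Figure D1:**
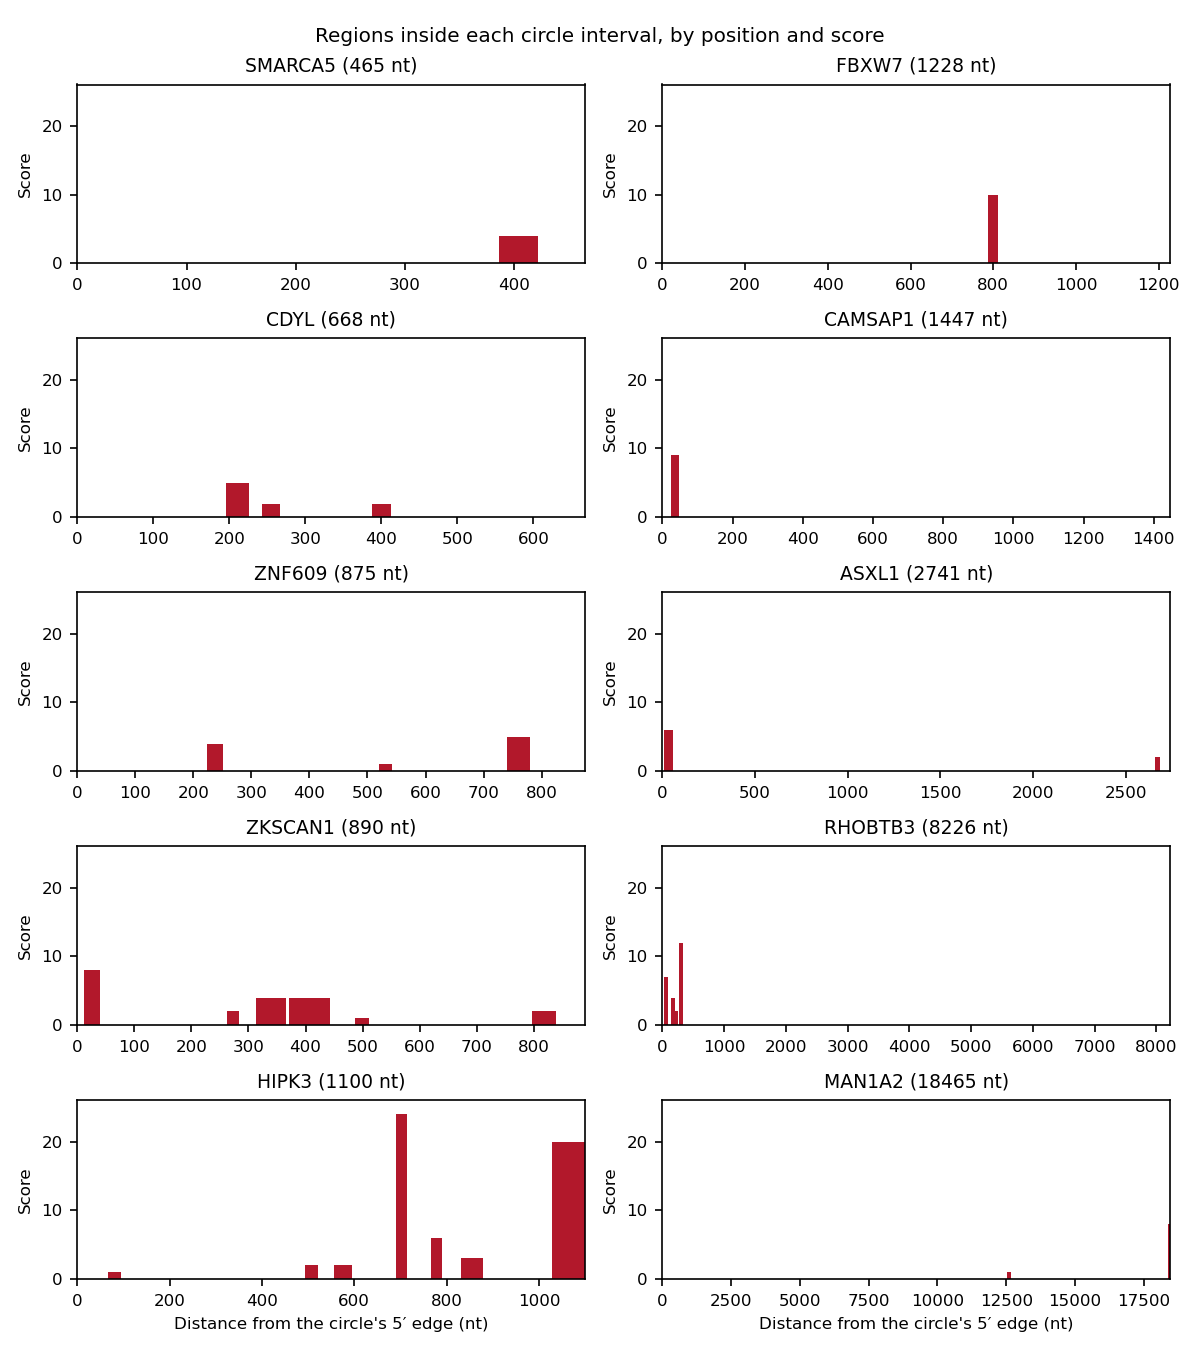
Score of each region (vertical axis, authors' score) against its distance in nt from the 5′ edge of the circle (horizontal axis), 1 panel per circle, ordered by interval length. Bars span the region's width, except in the RHOBTB3 and MAN1A2 panels, where they are drawn wider than the region so that they can be seen. HIPK3 holds the bars of 24 and 20, and the 4 RHOBTB3 bars stand together toward the 5′ edge.

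HIPK3 encodes homeodomain-interacting protein kinase 3, and its circle is the single large second exon of the gene, which includes the start codon. The circle has been reported to bind several microRNAs, among them miR-124. Its interval (chromosome 11, 33307958 to 33309057, plus strand) held the highest score of all 30 regions, 24, in a narrow region of 25 nt at 33308648 to 33308672. The region with the next highest score, 20, was 71 nt wide and ran from 33308987 to 33309057. It ended on the last base of the circle, at the 3′ back-splice site, which is also the end of the exon in the linear mRNA. Both stood in the 3′ part of the exon, 690 and 1029 nt from the 5′ edge.

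The other HIPK3 regions had low scores. From 5′ to 3′ they had scores of 1, 2 and 2 upstream of the highest region, and of 6 and 3 between it and the last. Taken by the 1-nt position that the file gives inside each region, 5 of the 7 regions, with 55 of the 58 units of score, fell past the midpoint of the interval. The longest stretch without a region between 2 neighbours, 398 nt, followed the first region, and gaps between neighbours were otherwise 34 to 151 nt. Regions covered 264 of 1100 nt (24.0%).

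ZKSCAN1 encodes a zinc finger protein with KRAB and SCAN domains, and its circle is a common model of circularization by inverted repeats in the flanking introns. Regions covered 26.97% of its interval (chromosome 7, 99621041 to 99621930, plus strand), 240 of 890 nt, the highest share among the 10 circles. Scores were lower than the top scores in HIPK3. The highest, 8, belonged to a region of 27 nt at 99621053 to 99621079, which began 12 nt inside the 5′ edge. A pair of regions with a score of 4 each, 52 and 72 nt wide, followed at 313 and 371 nt from that edge, with 6 nt between them. The other 3 had scores of 2, 1 and 2, and the last of them ended 51 nt before the 3′ edge. By score the distribution along the interval was opposite to that in HIPK3, with 18 of 21 before the midpoint. Introns inside the intervals were not mapped, so covered shares and midpoints are those of the whole interval, not of exons.

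All 4 regions of the 8226-nt RHOBTB3 interval (chromosome 5, 95091099 to 95099324, plus strand) lay toward the 5′ edge, within a span of 264 nt. The first began 46 nt from that edge and the last 287 nt from it. Their scores from 5′ to 3′ were 7, 4, 2 and 12. The region with a score of 12, at 95091386 to 95091408, was 23 nt wide. After it no region was listed for the remaining 7916 nt up to the 3′ edge.

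ZNF609 and CDYL had 3 regions each and low scores. ZNF609 encodes a zinc finger protein, and its circle, from the second exon, has been studied in muscle cells. Its regions (chromosome 15, interval 64791491 to 64792365, plus strand) had scores of 4, 1 and 5 from 5′ to 3′, the last at 64792232 to 64792270. They were spaced widely, with gaps of 268 and 199 nt. CDYL encodes a chromodomain protein that acts as a transcriptional corepressor. Its regions (chromosome 6, interval 4891946 to 4892613, plus strand) had scores of 5, 2 and 2, the first at 4892142 to 4892171, with 17 nt between the first and the next. The region closest to an edge lay 95 nt from the 3′ edge in ZNF609 and 196 nt from the 5′ edge in CDYL.

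FBXW7, CAMSAP1 and SMARCA5 had a single region each. FBXW7 encodes the substrate-binding subunit of an SCF ubiquitin ligase. Its region, on the minus strand of chromosome 4 at 153332871 to 153332893, was 23 nt wide with a score of 10, and lay 788 nt from the 5′ edge and 417 nt from the 3′ edge. CAMSAP1 encodes a protein that binds the minus ends of microtubules. Its region, on the minus strand of chromosome 9 at 138774877 to 138774900, was 24 nt wide with a score of 9, and began 24 nt inside the 5′ edge. SMARCA5 encodes the ATPase of ISWI chromatin remodelling complexes. Its region, on the plus strand of chromosome 4 at 144465047 to 144465082, was 36 nt wide with a score of 4, and ended 43 nt before the 3′ edge. The FBXW7 and CAMSAP1 scores exceeded those of all regions in ZNF609, CDYL and ZKSCAN1, and the SMARCA5 score was the lowest of the 10 highest scores per circle.

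ASXL1 and MAN1A2 had 2 regions each in long intervals. ASXL1 encodes a chromatin protein that works with the deubiquitinase BAP1. Its regions (chromosome 20, plus strand) stood at opposite ends of the interval, a score of 6 at 30954194 to 30954242, 8 nt inside the 5′ edge, and a score of 2 whose end lay 58 nt before the 3′ edge, with 2600 nt between them. MAN1A2 encodes a Golgi mannosidase that trims N-linked glycans. One of its regions (chromosome 1, plus strand, 117963226 to 117963263), with a score of 8, ended 8 nt before the 3′ edge. The other had a score of 1 and a width of 19 nt, and lay 5849 nt from the nearest edge. Of the 30 regions it was the farthest from an edge, followed by 1 in HIPK3 at 505 nt.

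In the intervals over 2 kb most regions lay near the edges. ASXL1, RHOBTB3 and MAN1A2 together spanned 29432 nt, 81.5% of the length of all 10 intervals, and held 8 of the 30 regions. Of these 8, 7 came within 500 nt of an edge, in 3000 nt of sequence, with a summed score of 41. The other 26432 nt held 1 region with a score of 1. Of the 7, 4 were the RHOBTB3 regions, which lay within a span of 264 nt. Interval edges are exon edges, and introns inside these intervals were not mapped. The contrast therefore cannot tell nearness to an edge from lying in an exon. In the 7 shorter intervals 21 of 22 regions came within that distance of an edge, but there it took in 5898 of 6673 nt. No region of any circle crossed an interval edge. These edges are exon edges in the linear mRNA as well, and crossings of exon edges over the whole list were not counted. This absence therefore does not set circular against linear RNA.

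**Figure D2:**
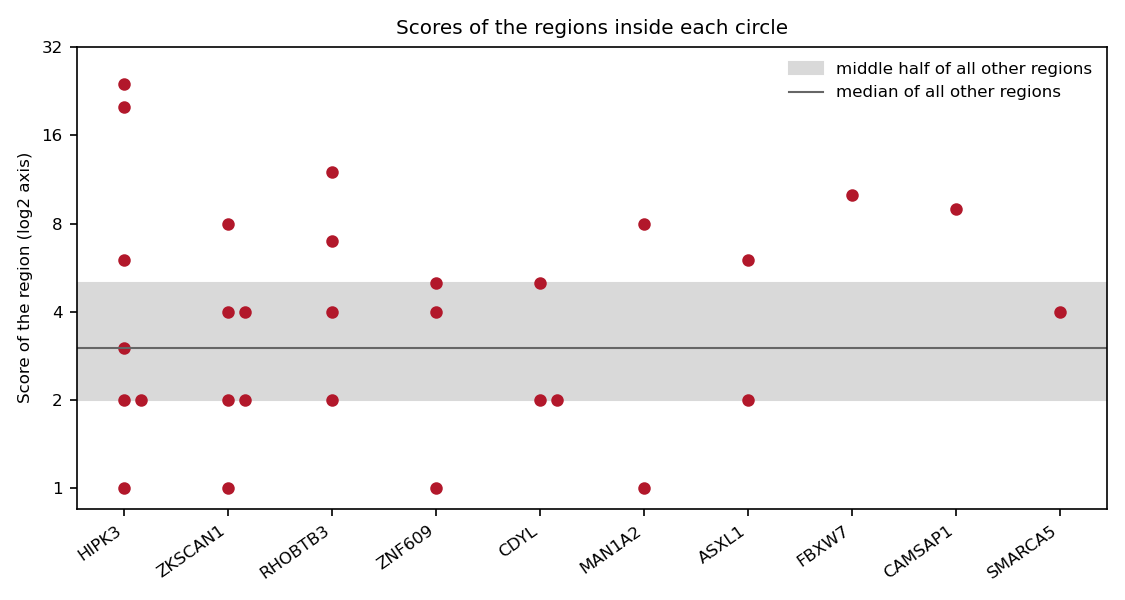
Score of each region (vertical axis, log2 scale) by circle, with circles ordered by number of regions; 1 point is 1 region, and equal scores are set side by side. The grey band and line give the quartiles (2 to 5) and the median (3) of all other regions in the list; of the 10 circles, only SMARCA5 has no score of 5 or more.

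Scores inside the circles lay close to those of the whole list. The 30 regions had a median score of 4 (interquartile range 2 to 6.75) and the other 211917 regions a median of 3 (2 to 5). The means were 5.43 in the circles and 5.48 in the rest, whose highest scores reach 1000. Scores of 5 or more were found in 12 of 30 regions (40.0%, Wilson 95% interval 24.6 to 57.7), against 27.0% of all regions. Scores of 10 or more were found in 4 (13.3%, 5.31 to 29.7), against 11.0%, and scores of 20 or more in 2 (6.67%, 1.85 to 21.3), against 4.09%. These intervals cover counting error alone, treat regions as independent, and contain the share of the whole list in all 3 cases. Both regions of 20 or more were in HIPK3. Without HIPK3 the share with a score of at least 5 was 39.1% of 23.

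The score of at least 5 was spread over the circles, with such a region in 9 of 10. At the low end, 4 regions had a score of 1 and 8 a score of 2. Scores of 1 were found in HIPK3, ZNF609, MAN1A2 and ZKSCAN1.

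Widths were close to those of the list, with a median of 28 nt in the circles (interquartile range 24 to 38.75) and 32 nt in the rest (25 to 43). Since width rises with score in this list, each region was also set beside all regions of its own score. The HIPK3 region with a score of 24 was 25 nt wide, against a median of 61 nt over the 402 regions with that score. The RHOBTB3 region with a score of 12 was 23 nt wide, against 50 nt over 1866 regions, and the FBXW7 region with a score of 10 was 23 nt wide, against 46 nt over 2853. The HIPK3 region at the 3′ back-splice site went the other way, with 71 nt against 58 nt over 661 regions. Of the 7 circle regions scoring 8 or more, 6 were narrower than the median of their score, as were 49.2% of the 31416 such regions in the whole list. Over all 30 it was 18, against 47.7% in the whole list. With 7 and 30 regions these shares are descriptions, and no test was made.

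Inside a region, the 1-nt position given by the file lay at a median of 0.479 of the width from the 5′ end in the circles, and at 0.524 in the rest. What this position marks is not stated in the file. In the circles it ranged from 0.107 to 0.814.

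Regions were denser inside the circles than beside them, as a description without a test. Over the 10 intervals there were 0.831 regions per kb, 30 in 36105 nt. In flanks of 1 interval length on each side there were 0.111 per kb, 8 in 72210 nt, a ratio of 7.5. The density inside was the higher in 9 of 10 circles. MAN1A2 was the exception, with 0.108 per kb inside and 0.135 in its flanks, and its interval is the longest. Without HIPK3 and ZKSCAN1, the circles with the most regions, the ratio was 4.25. Without MAN1A2 the density was 1.59 per kb inside and 0.0850 in the flanks, a ratio of 18.7. In 8 circles the flanks held no region. Since every interval held at least 1 region, the direction was fixed in advance in these 8. The circles were chosen with earlier results of these data known, and the contrast was not made for other exons. The higher density is therefore not read as a trait of the circles. The 8 flank regions lay beside MAN1A2, with 5, and RHOBTB3, with 3, and their highest score was 5.

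Flanks of fixed width gave the same direction in the same number of circles. Empty flanks fixed it here too, in 8 circles with flanks of 1 kb and in 4 with flanks of 10 kb. Within 1 kb of an edge there were 3 regions, or 0.150 per kb, all downstream: 2 beside SMARCA5 and 1 beside MAN1A2. Within 10 kb there were 48 regions, or 0.240 per kb, 12 upstream and 36 downstream, and the ratio was 3.46. Of these, 20 lay beside SMARCA5 and 14 beside ZKSCAN1. For HIPK3, ZNF609, CDYL and CAMSAP1 no region lay within 10 kb on either side. The flanks of an exon are mostly intron, and introns are removed from the mRNA as they are from most circles, so this contrast does not set circular against linear RNA.

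**Figure D3:**
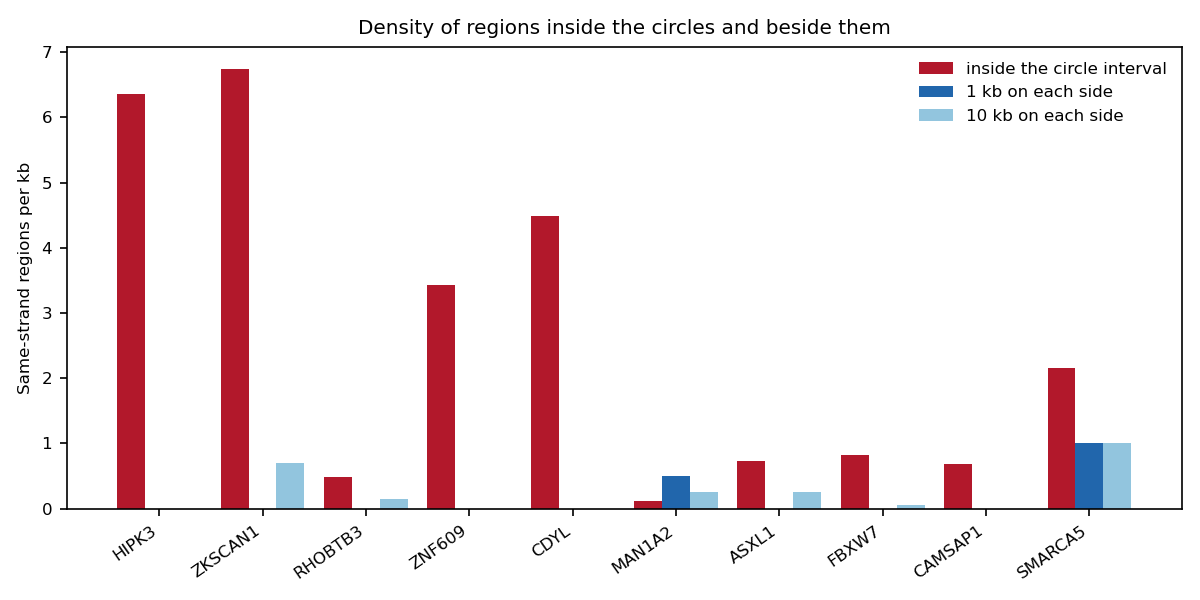
Same-strand regions per kb (vertical axis) inside each circle interval, in 1 kb on each side and in 10 kb on each side, by circle; introns within an interval count toward its length. The inside value is the highest in 9 circles, and in MAN1A2 it is the lowest of the 3.

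The opposite strand was empty. No region was listed on it inside any of the 10 intervals, or within 10 kb of them. How often this holds over the whole list was not counted, so it is not read as a trait of the circles.

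The distance to the nearest region outside differed widely between circles. The HIPK3 exon stood alone, with the nearest region 10861 nt upstream (33297069 to 33297096, score 4) and 51981 nt downstream (33361039 to 33361074, score 1). For ZNF609 these distances were 34903 nt upstream and 74405 nt downstream, and for CDYL 62810 and 22352 nt. FBXW7 and ZKSCAN1 were empty upstream for 93521 and 73556 nt but had a region 2151 and 1363 nt downstream. SMARCA5 had the closest neighbours on both sides. Its own region had a score of 4, the neighbour 3012 nt upstream a score of 3 and the neighbour 806 nt downstream a score of 7. The downstream region was the nearer in 7 of 10 circles.

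**Figure D4:**
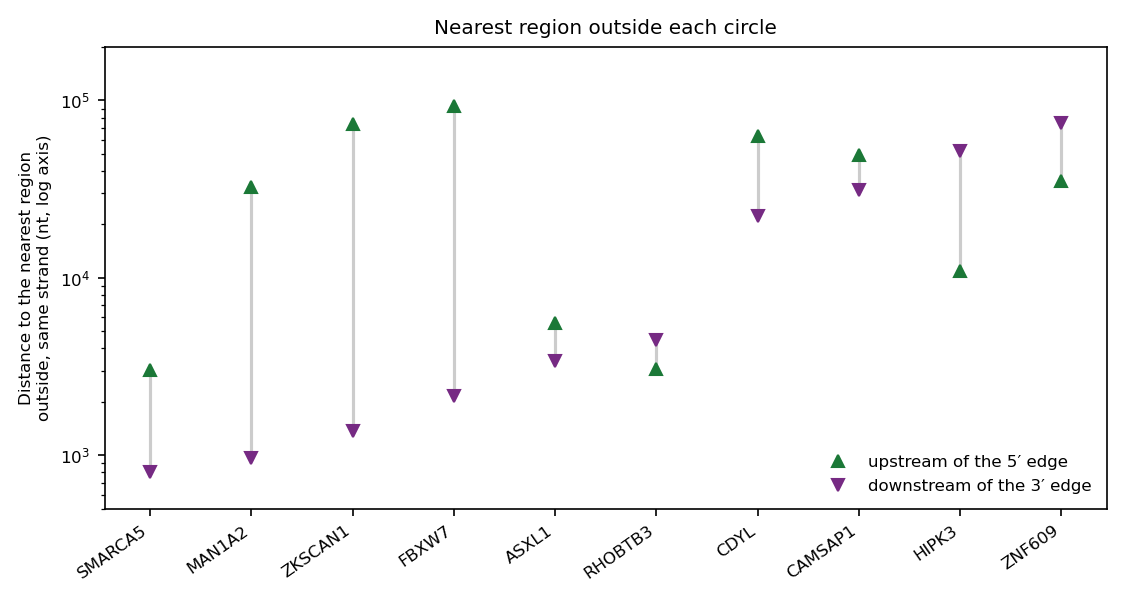
Distance in nt (vertical axis, log scale) from the 5′ edge of each circle to the nearest same-strand region upstream, and from the 3′ edge to the nearest downstream, with circles ordered by the downstream distance. Distances run from 806 nt (SMARCA5, downstream) to 93521 nt (FBXW7, upstream).

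The share of circle regions with a close neighbour lay near that of the whole list. Another region on the same strand lay within 500 nt for 23 of 30 (76.7%, Wilson 95% interval 59.1 to 88.2), against 71.6% of all regions. These 23 were the regions of the 5 circles with 3 or more, and the 7 in the other circles had none. Having a neighbour is mutual and was all or none by circle, so the interval, which treats regions as independent, is too narrow. The median number of such neighbours was 3 in the circles and 2 in the rest, whereas the mean was 2.73 in the circles and 3.27 in the rest. Without HIPK3 the share was 69.6%, the median 2 and the mean 2.17. When regions on a strand were joined into runs wherever at most 1000 nt lay between 1 region and the next, the runs stayed inside the interval for 8 circles. The runs of SMARCA5 and MAN1A2 went on past the 3′ edge, by 3 and 5 further regions.

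Runs with more regions lay farther downstream of most circles. Within 100 kb downstream on the same strand, the run with the most regions was sought for each circle, leaving out runs that began inside the circle. This left out the 3 regions of SMARCA5 and the 5 of MAN1A2 past the 3′ edge. It was picked for its count, so what follows describes it and tests nothing, and which gene holds each run was not analysed here. For HIPK3 the circle held 7 regions summing to 58 with a maximum of 24, and the run held 36 regions between 33374812 and 33378568, summing to 239 with a maximum of 32. Per kb of its whole interval the circle had 52.7 units of score. The run had 63.6 per kb, measured from its first to its last region. For ZKSCAN1 the highest score was 8 in the circle and 92 in a run of 47 regions (99631295 to 99639306), although regions were denser in the circle, with 6.74 per kb, than in the run, with 5.87. For FBXW7 it was 10 in the circle and 163 in a run of 13 regions (153242413 to 153244247).

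The highest score of the circle was below that of the run in 7 of 10 cases. In each of these 7 the run held more regions than the circle. A highest score over more regions tends to be higher, so this tally does not set height of score apart from number of regions. The exceptions were ZNF609, RHOBTB3 and MAN1A2. For ZNF609 the circle held 3 regions with a highest score of 5, and the 100 kb downstream held 1 region, with a score of 4. For RHOBTB3 the highest score was 12 in the circle and 7 in the run, which had 14 regions. For MAN1A2 it was 8 in the circle and 3 in the picked region. Apart from the 5 regions left out, whose highest score was 4, the 100 kb downstream of MAN1A2 held 4 regions, each more than 1000 nt from the next. In all 8 circles whose picked run held more than 1 region, the summed score per kb was lower in the circle interval, introns included, than in the run. The number of regions per kb was lower in the circle in 7 of these 8, all but ZKSCAN1. Lengths were taken unlike here: a run from its first to its last region, a circle over its whole interval with any empty ends. That alone lowers the values per kb of the circles, so these counts do not compare like with like.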

How the data were processed

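The deposited file is 1 list of regions for the series, with no column per library. Per the file headers it is on hg19, from a library set named AGO_good, after a filter whose name includes 0.05; per the submitters' processing notes BWA 0.5.8c was used. Neither the caller of the regions, nor what the filter means, nor which libraries were pooled is given in the sources used here. Scores are the authors', as deposited, with no unit or normalization stated. The other columns used, of no measurement unit, are the deposited coordinates, printed counting from 1.

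The circle intervals are the hg19 coordinates that define the set, read as counted from 1. The circles, lists and measures were chosen with earlier results of these data known. All 10 circles are named, each with its highest region and its nearest outside regions where these differ most. From the list, counts, summed scores, joined covered lengths, flank densities and distances were computed. No test was run, because no value has a replicate. The planned count of microRNA seed matches needs the hg19 sequence and was not run. Overlap, coverage, gap and neighbour functions were tested on simulated data, where all 200 intervals and 100 regions came back as made. Alternatives are described at the end. The tools were matplotlib 3.10.9, scipy 1.17.1, pandas 2.3.3, numpy 2.4.6 and Python 3.11.15.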

Additional observations from a re-analysis of the deposited data

How the results depend on the processing

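For the 5 summary results, 14 alternatives were planned and 4 were added after the data were seen. The number of regions stayed at 30 when the inner position or the whole region had to lie inside the interval, or when the interval's start was counted from 0. Since no region crossed an edge, the rules on inner position and whole region could not change the number of regions. The number was 26 at scores of at least 2 and 28 with regions at most 20 nt apart joined (added). At scores of at least 3 it was 18, which leaves 4 in HIPK3 and 3 in ZKSCAN1. Over the single circles, 6 of 60 alternatives lowered the count by more than 1.5 times, each of them a score minimum. The covered share of the intervals (2.78%) was 2.51% at scores of at least 2 and 1.84% at scores of at least 3, since fewer regions remain. The ratio of density inside to flanks (7.5) was 6.5 at scores of at least 2, 5.54 with flanks of 1 kb, 3.46 with flanks of 10 kb, and, in the alternatives added, 18.7 without MAN1A2, 5.75 without HIPK3 and 4.25 without HIPK3 and ZKSCAN1. The summed score stayed at 163 with scores above 100 set to 100, which could not change it, as the highest score in the circles was 24. The share with a score of at least 5 (40.0%) was 39.1% without HIPK3. No paired analysis was possible because the list has no values per library. Read depth is unknown, so a stretch without a region may hold binding that was not detectable here.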
